A study of Mus musculus with 8 samples.

Results

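Kidneys of mice that lack Col4a3, a model of the hereditary kidney disease Alport syndrome, were compared with wild type kidneys on whole-transcript arrays. The comparison uses 5 of the 8 arrays of the series, namely the 3 of Col4a3-/- mice and the 2 of wild type mice. Each array holds the kidney RNA of 1 mouse aged 2 months, and the other 3 arrays, of mice that lack Col4a3 and OPN (osteopontin), enter the fits for their spread and, where a sex term is used, for the effect of sex. The members of the comparison are the 22180 genes that a probe set names alone, each by its probe set with the highest mean, and 7145 of them lay above the filter on low values and were tested. The labels used here give neither strain nor sex, and nothing on how or in which cells the gene was disrupted. Fewer cells of a type and less RNA per cell cannot be told apart in whole kidney RNA.

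The product of Col4a3 joins those of Col4a4 and Col4a5 in a triple helix, and this trimer forms the mature basement membrane of the glomerulus, the filter of the kidney. Podocytes secrete it, and where a chain is missing the trimer is not built, so the filter keeps the fetal network of Col4a1 and Col4a2. Alport kidneys leak protein, and with time scar between the tubules, gather macrophages and lose proximal tubule cells, which reabsorb most of the filtrate and run on mitochondrial oxidation.

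All values are deposited log2 values, with array medians from 5.18 to 5.25 over all probe sets. Below, the values of a gene are given in the order wild type 1 and 2, then single mutant 1, 2 and 3, and a difference is the single mutant mean minus the wild type mean. Xist, a noncoding RNA of X inactivation, and the Y-linked genes place both wild type mice and single mutant 2 with the males, and single mutants 1 and 3 with the females. Genotype and sex are therefore partly mixed, and results are given without a sex term, with one, and for the 1 male and the 2 female single mutants apart. The sex term is estimated among the mutants only, since no wild type female was measured. Its use presumes that wild type mice differ by sex as the mutants do, which could not be tested. Single mutant 2 also stood apart from the other 4 arrays of the comparison. Its correlation over the tested genes was 0.865 and 0.839 with single mutants 1 and 3 and 0.80 and 0.763 with wild type, whereas the 2 wild type arrays correlated at 0.965. Its closest array was the male double mutant, at 0.948. Against the wild type mean, 357 genes were higher by at least 1 and 720 lower by at least 1 in single mutant 2. In single mutant 1 these counts were 122 and 207, and in single mutant 3 they were 99 and 109. Between the 2 wild type arrays, 40 genes differed by at least 1 in 1 direction and 34 in the other.

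Col4a3 itself (chromosome 1, 82586921 to 82722059, GRCm38) measured 8.77 and 8.42 in wild type and 7.65, 7.67 and 6.60 in the single mutants. The groups did not overlap, and the lowest wild type array lay 0.75 above the highest mutant. The difference of -1.29 (SE 0.46) did not pass the test (adjusted p = 0.162, limma with Benjamini-Hochberg adjustment). With a sex term it was smaller, at -0.73 (SE 0.40, adjusted p = 0.201), and in the male single mutant it was -0.93. The mutants kept signal on this probe set, and where its probes lie relative to the disrupted part of the gene was not tested. Col4a4 lies head to head with Col4a3 on the same chromosome and its partner chain is built into the same trimer. It measured 8.41 and 7.93 in wild type and 8.18, 8.39 and 8.04 in the single mutants, so the groups overlapped. Col4a5, the X-linked partner, measured 6.73 and 6.63 against 6.84, 6.82 and 7.02. Its difference of 0.21 did not pass either.

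Without a sex term 2 of 7145 genes passed (0.0280%), Nupr1 on the higher side and Msrb1 on the lower (0.0140% each), while 1656 (23.2%) had an unadjusted p under 0.05. With a sex term 1946 passed (27.2%), 522 of them higher (7.31%) and 1424 lower (19.9%). An unadjusted p under 0.05 was found for 3092 (43.3%). The calls with a sex term lean on single mutant 2, the 1 male single mutant, as the fit without it shows below. Here and in the lists that follow, they are not read as an effect of genotype freed from sex. The split of higher and lower calls depends on the normalization: it was 805 and 1045 after quantile normalization and 814 and 1029 after cyclic loess. The median difference of all tested genes with a sex term was -0.15 as deposited and -0.04 after either of these, so list medians of that fit are read beside it. Without single mutant 2 the fit with a sex term called 0 genes, while 1825 had an unadjusted p under 0.05, and without wild type 2 it called 25 higher and 41 lower. Set apart by the arrays alone, 1379 genes had all 3 single mutants above both wild type arrays, and 2081 had all below. The mean difference was at least 1 as well in 141 (1.97%) and 199 (2.79%) of these. Only 28 genes in each direction (0.392%) had a gap of at least 1 between the groups. Without single mutant 2, the counts that did not overlap were 1772 and 2322.

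Col4a1 and Col4a2, the chains of the fetal network, stood higher in every single mutant. Whole kidney RNA does not place this rise in the filter, and where in the kidney it arose was not tested. Col4a1 measured 7.39 and 7.19 in wild type and 7.91, 8.94 and 8.11 in the single mutants. Col4a2 measured 7.45 and 7.29 against 7.84, 9.07 and 8.05. In both genes the male single mutant was highest by a wide margin. Neither passed without a sex term (adjusted p = 0.203 and 0.218 in limma), and both passed with it, at 1.60 (adjusted p = 0.0161) and 1.53 (adjusted p = 0.0144).

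Of 20 tested laminins and other basement membrane genes, 17 had a mean above wild type, where 42.8% of all 7145 tested genes did. In 11 of the 20 all single mutants lay above both wild type arrays, a pattern that 19.3% of tested genes had, and in 1, Lama3, all lay below, as in 29.1% of tested genes. The median difference was 0.56, against -0.07 over all tested genes. It was 1.08 in the male and 0.39 in the females. The filter takes the mean over 8 arrays, so a gene low in wild type can pass it through the mutants alone, as 3 of the 20 did with both wild type values under the filter. Medians and counts of the lists that lie above wild type are therefore given over all their measured members. For these 24 genes the median was 0.53, against -0.01 over all 22180 named genes, of which 46.5% had a mean above wild type, 15.5% lay above it without overlap and 19.2% below. These shares are the ones to set beside the later counts over measured members. Lamc1, the gamma chain of most laminins, measured 8.27, 8.49 and 8.29 against 7.61 and 7.25 in wild type. Its difference was 0.91 (adjusted p = 0.0682 in limma), and 1.04 with a sex term (adjusted p = 0.009). Frem1, a matrix protein of epithelial basement membranes, measured 5.63 and 5.73 in wild type and 6.96, 7.67 and 6.98 in the single mutants. Smoc2, a calcium-binding matrix protein, measured 5.90 and 6.35 against 7.45, 9.04 and 7.41. For both, the gap between the groups exceeded 1. Lama3 and Tinag, a basement membrane antigen of tubules, were the members with the lowest differences, at -0.63 and -0.49.

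**Figure D1:**
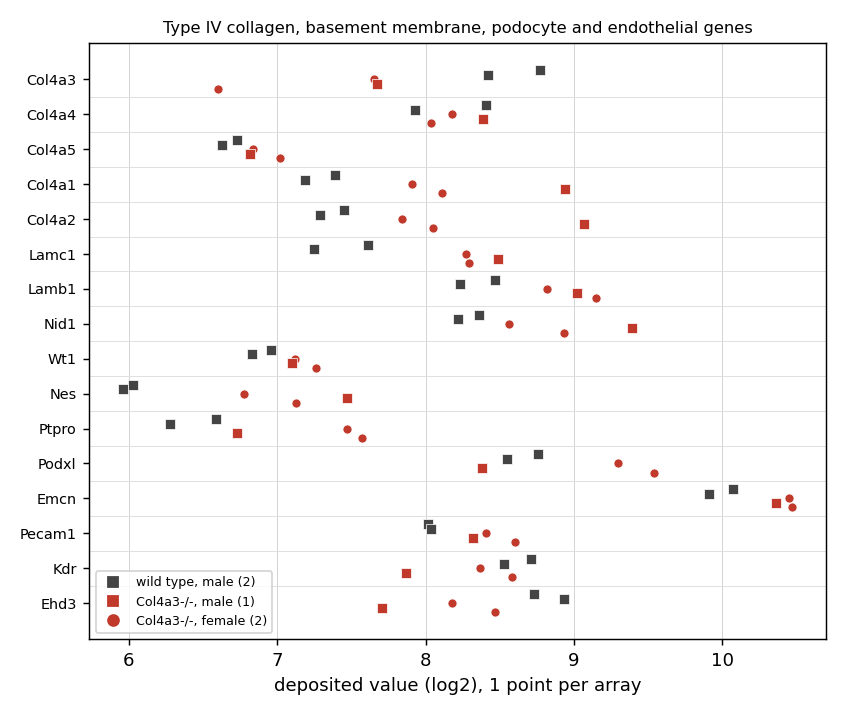
Deposited log2 values (x axis) of 16 genes of type IV collagen, the basement membrane, podocytes and endothelium (y axis), with 1 point per array, grey for wild type and red for Col4a3-/-, squares for males and circles for females. Col4a3 is the gene whose mutant points lie left of wild type by the widest gap, 0.75, while Col4a1, Col4a2 and Lamc1 lie right of wild type in all 3 mutants.

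Of 23 measured podocyte genes, 20 had a mean above wild type, the median difference was 0.27, and 9 did not overlap on the high side. Of the 12 tested, 6 did not overlap on that side, where 19.3% of all tested genes did not, and their male and female medians were 0.25 and 0.41. Of the 12, 3 had both wild type values under the filter, Nes, Ptpro and Thsd7a, and all 3 are among the 6. The count of 6 is therefore not read as a result. Wt1, a transcription factor of podocytes, measured 6.96 and 6.83 in wild type and 7.12, 7.10 and 7.26 in the single mutants. Ptpro, a phosphatase of the podocyte surface, measured 6.59 and 6.28 against 7.47, 6.73 and 7.57. Nes, an intermediate filament gene, had the widest gap of the list, with 6.03 and 5.96 in wild type and 6.78, 7.47 and 7.13 in the single mutants. It was the 1 gene of the 12 tested to pass with a sex term (1.28, adjusted p = 0.00971 in limma). Over all tested genes 7.31% passed on the higher side, so this call is not read as a result about podocytes. Podxl, the sialomucin of the podocyte surface, measured 9.30 and 9.54 in the female single mutants, 8.38 in the male and 8.76 and 8.55 in wild type, so the male lay below wild type and the females above it.

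Of 20 measured endothelial genes, 13 had a mean above wild type, with a median difference of 0.08. Over the 16 tested it was 0.17, with a male median of -0.03 and a female median of 0.25. Emcn, a sialomucin of capillaries, was higher in all single mutants, with 10.07 and 9.91 against 10.45, 10.36 and 10.47. Ehd3, a membrane trafficking gene known for glomerular endothelium, was lower in all of them, with 8.73 and 8.93 against 8.18, 7.71 and 8.47. Ehd3 and Kdr, the main receptor for VEGF, passed with a sex term, at -1.45 (adjusted p = 0.0125) and -0.75 (adjusted p = 0.0161). Plat, tissue plasminogen activator, passed in the other direction, at 0.80 (adjusted p = 0.0189 in limma). No other gene of the 16 tested passed in that fit. Over all tested genes 19.9% passed on the lower side and 7.31% on the higher, so these calls are not read as a result about endothelium.

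Nupr1, a small nuclear protein induced by many cell stresses (chromosome 7, 126623246 to 126625470), measured 6.84 and 6.78 in wild type and 8.47, 8.59 and 8.51 in the single mutants. The 5 values fall into 2 tight groups, and the male lies beside the females. The difference was 1.71 (SE 0.14, adjusted p = 0.00654 in limma), a 3.27-fold rise, and with a sex term it was 1.66 (adjusted p = 0.00532). Msrb1, a selenoprotein that reduces oxidized methionine (chromosome 17, 24736593 to 24742778), measured 10.33 in both wild type mice and 8.89, 8.78 and 8.73 in the single mutants. It fell by 1.53 on the log2 scale (SE 0.12, adjusted p = 0.00654), which is 2.89-fold, and with a sex term the difference was -1.54 (adjusted p = 0.00531). Neither call held without some of the arrays. Leaving out wild type 1, wild type 2, single mutant 1 or single mutant 3 left 0 genes called without a sex term, with 608 to 1919 unadjusted p values under 0.05.

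The promoters of these 2 genes are shown because they alone were called without a sex term. Each is the 250 bases before the start of the gene, 5′ to 3′ on the strand of the gene, from RefSeq on GRCm38.p6. Capitals mark a match to TGATGNAA on either strand, the core of the element that ATF4 and C/EBP factors bind in genes of the integrated stress response.
Nupr1, chr7:126625471-126625720, minus strand: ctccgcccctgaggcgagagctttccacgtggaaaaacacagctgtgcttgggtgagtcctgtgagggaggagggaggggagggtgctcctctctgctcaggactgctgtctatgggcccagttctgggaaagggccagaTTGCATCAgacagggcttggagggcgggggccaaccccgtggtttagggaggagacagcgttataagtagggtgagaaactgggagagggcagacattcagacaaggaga
Msrb1, chr17:24736343-24736592, plus strand: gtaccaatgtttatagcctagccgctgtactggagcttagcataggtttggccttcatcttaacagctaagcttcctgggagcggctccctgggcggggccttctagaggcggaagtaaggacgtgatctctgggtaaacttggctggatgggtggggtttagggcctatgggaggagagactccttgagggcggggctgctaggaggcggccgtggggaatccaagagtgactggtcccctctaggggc
The Nupr1 window holds 1 match, TTGCATCA on the printed strand, 110 to 103 bases before the start, and the Msrb1 window holds none. Among all 27025 promoters of this length 954 hold a match (3.53%), and of 29 promoters of the integrated stress response list 7 do (24.1%). The match is a description of the letters, not of binding.

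The integrated stress response list has 6 other promoters with a match, and 2 of these genes were tested. Atf3, a stress-induced transcription factor, measured 6.89 and 6.76 in wild type and 7.08, 7.66 and 6.53 in the single mutants. Pck2, the mitochondrial form of a gluconeogenic enzyme, differed by 0.21. In both genes the groups overlapped, and neither passed with or without a sex term. Asns, Chac1, Fgf21 and Slc7a11 lay below the filter, with differences from -0.36 in Asns to 0.10 in Slc7a11. Of all 21 tested genes of the integrated stress response list 9 had a mean above wild type, and the median difference was -0.11. Atf4, the central factor of this response, measured 7.29 and 7.28 in wild type and 7.47, 7.45 and 7.08 in the single mutants. Shmt2, a mitochondrial serine enzyme, was lowest of the list beside Ddit4, with 10.96 and 11.13 against 9.47, 8.47 and 9.84. Ddit4, an inhibitor of mTOR signalling, measured 8.95 and 8.86 against 5.74, 8.77 and 6.81, so the females were low and the male was not.

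Of 19 tested methionine sulfoxide reductases, selenoproteins and genes of their synthesis, 2 had a mean above wild type and 10 did not overlap on the low side, as 29.1% of all tested genes did not. The median difference was -0.27, and 7 passed with a sex term, all lower, where 19.9% of all tested genes did. Gpx3, a glutathione peroxidase that the proximal tubule secretes into plasma, measured 11.66 and 11.72 in wild type and 10.59, 10.21 and 11.09 in the single mutants. Sephs2, which makes the selenium donor, measured 9.87 and 9.96 against 9.45, 8.32 and 9.31. In Sephs2 the male lay well below the females. Msra, which repairs the other form of oxidized methionine, measured 9.68 and 9.67 against 9.06, 8.30 and 9.50.

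Short of the threshold, the 18 other genes among the 20 smallest p values had adjusted p from 0.0623 to 0.0682 in limma, and 15 of them were lower in the single mutant. Agtrap, a protein that binds the angiotensin II receptor and lowers its signal, measured 8.12 and 8.36 in wild type and 7.12, 7.02 and 7.19 in the single mutants. Treh, the trehalase of the brush border, measured 9.26 and 9.97 against 7.58, 7.90 and 7.74. Nat8, an acetyltransferase of cysteine conjugates, measured 8.27 and 8.77 against 6.55, 6.64 and 6.21. In each the male single mutant lay beside the females. Lap3, a leucine aminopeptidase, Ephx2, the soluble epoxide hydrolase, and Grhpr, the glyoxylate reductase whose loss causes kidney stones, differed by -1.36, -1.35 and -1.26. Slc30a2, a zinc carrier, Azgp1, a secreted lipid-mobilizing glycoprotein, and Slc25a22, a mitochondrial glutamate carrier, differed by -2.09, -2.61 and -1.31. Dnajc22, Ctbs, a lysosomal glycosidase, Dnph1, a nucleotide hydrolase, Spatc1l, Fhl1, a LIM domain protein, and 2310039H08Rik differed by -1.01, -1.12, -1.49, -1.73, -0.87 and -0.78. On the higher side stood Lcn2, Map3k1, a kinase upstream of JNK, at 1.21, and Abca1, the cholesterol exporter, at 1.51. Abca1 measured 7.34 and 7.13 in wild type and 8.42, 9.02 and 8.79 in the single mutants. All 18 passed with a sex term.

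Lcn2, a protein that binds iron-carrying siderophores and marks injured tubules (chromosome 2), led the 12 genes with the widest gap above wild type, with 5.74 and 5.96 in wild type and 8.58, 9.55 and 8.05 in the single mutants, a gap of 2.08. Lyz2, the lysozyme of macrophages, followed with 5.81 and 6.59 against 8.74, 10.48 and 8.47. Serpina3n, an acute-phase protease inhibitor, had 5.63 and 5.91 against 7.55, 9.17 and 8.24. In these, as in all of the 12 but Ccl5, single mutant 2 was highest. Mgp, an inhibitor of calcification, measured 9.75 and 9.27 against 11.45, 12.83 and 11.13. Aldh1a2, which makes retinoic acid, measured 5.28 and 5.35 against 6.61, 7.99 and 6.76. Ccl5, a chemokine for T cells, was highest in single mutant 1, with 5.39 and 6.16 against 9.24, 9.07 and 7.53. Col3a1, Vcam1, Col1a1, Tnc, Nupr1 and Frem1 complete the 12. All of the 12 but Mgp and Nupr1 had both wild type values under the filter, so they entered the tested genes through the mutants alone.

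On the lower side the widest gap was in Azgp1, with 8.73 and 8.96 in wild type and 6.52, 5.96 and 6.21 in the single mutants. Serpinf2, the plasmin inhibitor, measured 10.44 and 10.70 against 8.33, 8.85 and 8.44. Cndp1, the enzyme that splits carnosine, measured 9.60 and 10.18 against 7.87, 7.12 and 8.28. The male and the females were low in these genes. Osbp2, an oxysterol-binding protein, measured 7.78 and 8.21 against 6.16, 6.47 and 6.47. Akr1c14, a hydroxysteroid dehydrogenase, measured 9.77 and 10.59 against 8.16, 8.45 and 6.46. It did not pass in limma with a sex term (-1.45, adjusted p = 0.0929), where its female minus male term was -1.55. Slc22a28, an organic anion carrier, measured 10.51 and 11.06 against 7.35, 8.83 and 7.94. It is known to be male-high in mouse kidney, as are Slc7a13 and Cyp4a12a. Nat8, Slc30a2, Msrb1 and Treh complete the 12.

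**Figure D2:**
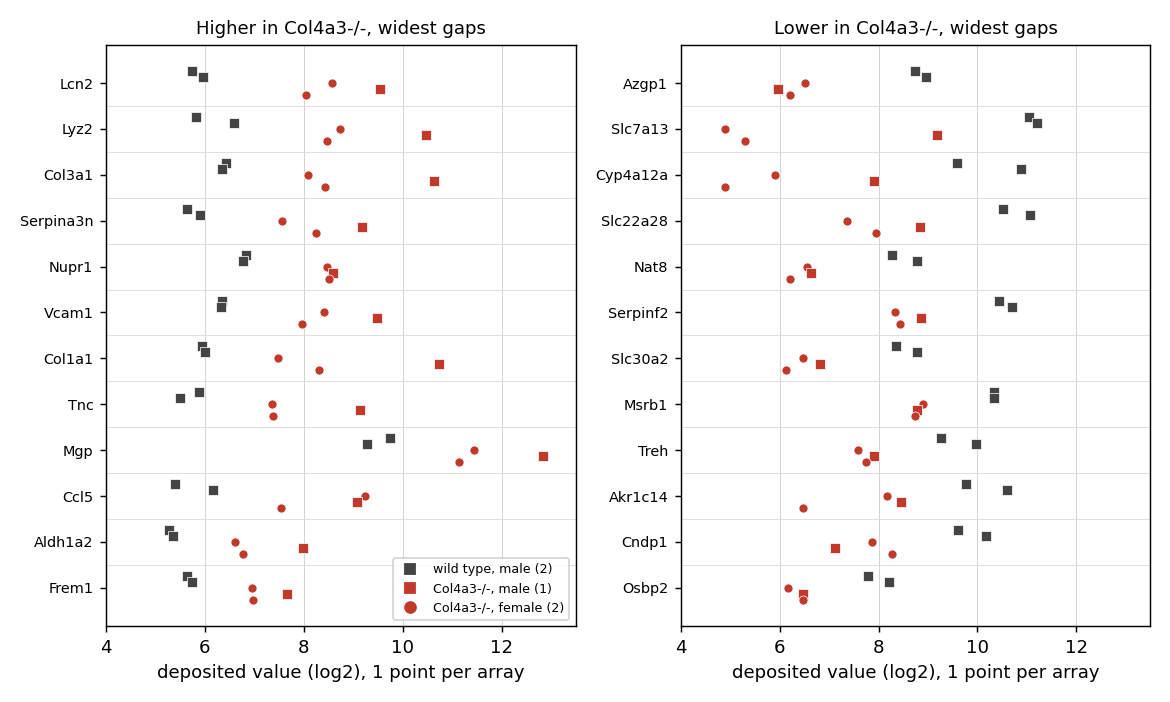
Deposited log2 values (x axis) of the 12 genes with the widest gap above wild type (left) and the 12 with the widest gap below (right), with 1 point per array, grey for wild type, red for Col4a3-/-, squares for males and circles for females. The points of a gene never overlap between the groups, since the genes were chosen for that. Nupr1 and Msrb1 have the tightest mutant points, and the male mutant lies right of the females in Lcn2, Lyz2 and Col3a1.

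All 13 measured collagens outside type IV had a mean above wild type, 11 of them did not overlap, and the median difference was 0.70. Of these, 8 were tested, and 5 of the 8 had both wild type values under the filter, Col1a1, Col3a1, Col6a1, Col6a3 and Col12a1. Col1a1, a chain of the main collagen of scars, measured 5.94 and 6.01 in wild type and 7.48, 10.74 and 8.31 in the single mutants. Col3a1 measured 6.43 and 6.35 against 8.08, 10.64 and 8.43. The adjusted p in limma was 0.126 and 0.119 without a sex term, and 0.0106 and 0.00783 with it. Of the 8 genes 7 passed with a sex term, all higher, where 7.31% of all tested genes did. Without it 0 passed, and 6 had an unadjusted p under 0.05. Since 5 of the 8 entered the test through the mutants alone, these counts are not read as a result.

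Matrix glycoproteins and proteoglycans had 25 of 29 measured genes above wild type, 21 not overlapping and a median of 0.82. Of the 18 tested genes 8 passed with a sex term, all higher, where 7.31% of all tested genes did. Of the 18, 4 had both wild type values under the filter, so the count of 8 is not read as a result. Tnc, a protein of wounds and developing tissue, measured 5.89 and 5.49 in wild type and 7.35, 9.13 and 7.38 in the single mutants. Fn1, fibronectin, measured 7.79 and 7.75 against 8.85, 10.92 and 9.28. Ccn2, a matricellular protein that TGF-beta induces, measured 8.32 and 8.17 against 9.12, 10.23 and 9.08. In each of these the male mutant had the highest value of the 5 arrays. Ecm1 and Mfap4, the 2 tested members with means below wild type, differed by -0.61 and -0.16 with overlapping arrays.

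The enzymes that modify and crosslink collagen had a mean above wild type in 7 of 14 measured genes, with a median of 0.17. Lox, the crosslinking oxidase, measured 6.07 and 5.53 in wild type and 6.84, 8.14 and 6.71 in the single mutants. Bmp1, which trims procollagen, passed with a sex term at 1.39 (adjusted p = 0.011 in limma), and P3h2, a prolyl hydroxylase, passed on the lower side at -1.10 (adjusted p = 0.0106). No other gene of the 10 tested passed, where 7.31% of all tested genes passed on the higher side and 19.9% on the lower. Bmp1 and Lox had both wild type values under the filter. These calls are not read as a result about the list. P3h2 followed sex among the mutants, with 10.08 and 10.39 in the females and 8.56 in the male, against 9.75 and 9.89 in wild type.

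Among 21 measured genes of fibroblasts, pericytes and smooth muscle, 19 had a mean above wild type and 11 did not overlap on the high side, with a median of 0.37. Acta2, the smooth muscle actin of myofibroblasts, was almost equally high in all mutants, with 8.50 and 8.65 against 9.34, 9.55 and 9.71. Vim, the mesenchymal filament protein, measured 8.19 and 8.42 against 9.51, 10.80 and 9.60. Pdgfra, a receptor of interstitial fibroblasts, measured 8.17 and 7.96 against 8.99, 10.03 and 9.25. With a sex term 5 of the 12 tested passed, all higher, including Acta2 (0.91, adjusted p = 0.0134) and Vim (2.00, adjusted p = 0.0112). Over all tested genes 7.31% passed on that side, and 2 of the 12 had both wild type values under the filter. The count of 5 is therefore not read as a result. Among matrix proteases and their inhibitors 19 of 20 measured genes had a mean above wild type, with a median of 0.58. Mmp14, a membrane-bound collagenase, measured 6.55 and 6.44 against 7.11, 9.08 and 7.61. Adamts1 measured 6.96 and 6.87 against 7.85, 8.17 and 7.46.

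In the TGF-beta pathway 17 of 22 measured genes had a mean above wild type, with a median of 0.26. Tgfb1, the ligand, measured 6.99 and 7.29 in wild type and 7.57, 8.90 and 8.04 in the single mutants. Tgfbr1, the signalling receptor, measured 7.54 and 7.34 against 7.89, 8.82 and 7.57. The SMAD proteins carry the signal to the nucleus, and Smad2, Smad3 and Smad4 differed by -0.04, 0.35 and 0.03. Smad7, which inhibits the pathway, differed by 0.36. Bmp7, a ligand of the same family made by kidney tubules, measured 8.45 and 8.41 against 7.87, 6.97 and 8.38. In the fit with a sex term 4 of the 12 tested passed: Tgfb1, Tgfbr1 and Ltbp1, which stores the ligand in matrix, on the higher side, and Bmp7 on the lower. Over all tested genes 7.31% passed on the higher side and 19.9% on the lower. Ltbp1 had both wild type values under the filter, so it entered the test through the mutants alone.

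Of 33 measured macrophage and monocyte genes 32 had a mean above wild type, 27 did not overlap on the high side, and the median was 1.05. Of these, 15 were tested, with medians of 2.18 in the male and 0.78 in the females, and 10 of the 15 had both wild type values under the filter. Mpeg1, a pore-forming protein of phagocytes, measured 5.68 and 5.88 in wild type and 7.06, 8.48 and 6.86 in the single mutants. C1qb, a complement subunit that kidney macrophages make, measured 7.07 and 7.24 against 7.85, 9.46 and 8.01. Mrc1, the mannose receptor, measured 5.60 and 5.73 against 6.23, 8.66 and 6.46. In these the females lay between wild type and the male. Csf1r, the receptor that maintains macrophages, did not share the pattern, with 8.05 and 8.31 against 8.18, 8.71 and 7.83. With a sex term 12 of the 15 passed, all higher, where 7.31% of all tested genes did. Without it 0 passed in limma, and 12 had an unadjusted p under 0.05. Since 10 of the 15 entered the test through the mutants alone, these counts are not read as a result. The mean of the 15 tested genes was 6.39 and 6.63 in wild type and 7.31, 8.65 and 7.31 in the single mutants. Over all 33 measured genes it was 5.75 and 5.87 against 6.37, 7.65 and 6.37. What part macrophages had in other results was not tested.

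Among MHC class II presentation genes 10 of 11 measured had a mean above wild type, with a median of 0.51. H2-Aa measured 7.93 and 8.47 in wild type and 9.45, 10.27 and 8.82 in the single mutants. All 31 measured chemokines and cytokines had a mean above wild type, with a median of 0.55. Ccl9 measured 5.84 and 6.12 against 7.09, 9.09 and 6.91. Cxcl1 was high in 1 wild type mouse and in the male mutant, with 6.16 and 7.23 against 6.26, 8.02 and 6.34. Of 13 measured leukocyte adhesion genes 12 had a mean above wild type and 10 did not overlap on the high side, with a median of 0.62. Vcam1, which binds leukocyte integrins, measured 6.35 and 6.33 against 8.40, 9.49 and 7.96. Of 27 measured interferon-induced genes 25 had a mean above wild type, with a median of 0.47. Tap1, the peptide transporter of antigen presentation, measured 6.59 and 6.24 against 7.08, 7.69 and 7.04. It passed with a sex term (1.19, adjusted p = 0.00945 in limma). Of the 9 tested interferon-induced genes 3 passed in that fit, all higher, where 7.31% of all tested genes did. Of the 9, 5 had both wild type values under the filter, Tap1 among them, so this count is not read as a result. Complement genes had 13 of 18 measured above wild type, with a median of 0.27.

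Markers of other leukocytes mostly lay below the filter. Of 23 measured T, B and NK cell genes only Ighm and Cd52 lay above the filter, and Cd3e measured 5.52 and 5.30 in wild type and 5.57, 5.99 and 5.63 in the single mutants. None of 12 neutrophil genes lay above it, and S100a8 measured between 4.48 and 4.75 on the 5 arrays. None of 11 adrenal gland genes and none of 9 skeletal muscle genes lay above it either, with Star, a steroidogenic gene, between 5.28 and 5.49 and Myh4, a myosin, between 4.53 and 4.68. Adipoq, a fat hormone, measured between 4.97 and 5.45.

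Tubule injury genes had a mean above wild type in 25 of 29 measured, 18 without overlap on the high side, with a median of 0.72. Of the 24 tested genes 10 passed with a sex term, all higher, where 7.31% of all tested genes did. Of the 24, 8 had both wild type values under the filter, so this count is not read as a result. S100a6, a calcium-binding protein of regenerating tubules, measured 6.30 and 6.36 in wild type and 7.73, 8.89 and 7.58 in the single mutants. Anxa3, an annexin, measured 6.35 and 6.46 against 7.48, 8.60 and 7.41. Anxa2, another annexin, measured 6.83 and 6.66 against 7.56, 8.64 and 7.67. These values were higher in every mutant than in either wild type mouse. Havcr1, the injury marker KIM-1, is different, because the 2 wild type mice disagree: it measured 4.78 and 7.92 in them and 8.57, 9.43 and 7.23 in the single mutants, so wild type 2 lay above 1 of the mutants. Krt20, a keratin of injured tubule cells, measured 4.83 and 4.76 against 6.74, 7.26 and 5.36. Krt8, S100a11, Itgb6 and Met had means below wild type, by at most 0.28.

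Acute phase genes had a median of 0.51, with 15 of 20 measured above wild type. Osmr, the receptor for oncostatin M, measured 7.16 and 6.66 in wild type and 8.45, 9.40 and 8.03 in the single mutants. Stat3, the transcription factor this receptor activates, measured 8.78 and 8.41 against 9.64, 9.93 and 9.27. Both passed with a sex term, at 2.25 (adjusted p = 0.00707) and 1.25 (adjusted p = 0.0107). Pigr, the carrier of IgA across epithelium, was the list's 1 tested gene with a mean below wild type, with 10.45 and 10.14 against 8.92, 8.43 and 9.52.

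Genes of the proximal tubule mostly had means below wild type. Of 18 tested brush border and endocytosis genes 2 had a mean above wild type, and 10 did not overlap on the low side, with a median of -0.56 (-1.16 in the male, -0.42 in the females). Mep1b, a protease of the brush border, measured 9.09 and 9.77 in wild type and 8.67, 7.33 and 8.51 in the single mutants. Amn, a partner of the endocytic receptor cubilin, measured 7.91 and 8.08 against 7.06, 6.76 and 7.37. Lrp2 and Cubn, the receptors that retrieve filtered protein, were low only in the male: Lrp2 measured 11.88 and 11.74 in wild type, 12.04 and 12.10 in the females and 10.44 in the male. Cubn measured 11.02 and 10.85 in wild type, 11.13 and 11.28 in the females and 9.17 in the male. The female mutants thus lay slightly above wild type in both receptors. Of the 18 genes 10 passed with a sex term, all lower, where 19.9% of all tested genes did. Of all tested genes 29.1% did not overlap on the low side.

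Solute carriers of the same cells had a median of -0.76, with -1.45 in the male and -0.32 in the females, and 2 of 22 tested had a mean above wild type. Slc5a2, which reabsorbs most filtered glucose, measured 10.27 and 10.40 in wild type and 8.91, 7.98 and 9.77 in the single mutants. Slc5a8, a carrier of lactate and other monocarboxylates, measured 10.75 and 11.15 against 9.99, 9.34 and 10.10. Slc6a19, the main carrier of neutral amino acids, measured 9.81 and 9.74 against 8.84, 7.24 and 9.76. Across these genes single mutant 3 was nearest to wild type and single mutant 2 farthest. Slc34a1, the phosphate carrier, was nearer to wild type, with 12.80 and 12.87 against 12.46, 11.83 and 12.65. Slc13a1, the sulfate carrier, and Slc5a1 had means above wild type, at 0.36 and 0.27.

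Carriers of organic ions and drugs followed, with 4 of 23 tested above wild type and a median of -0.75. Slc22a6, the organic anion exchanger OAT1, measured 11.40 and 11.66 in wild type and 10.40, 10.03 and 10.63 in the single mutants. Slc22a12, the urate exchanger, measured 11.26 and 11.27 against 9.95, 10.17 and 10.35. Slc22a2, the cation carrier OCT2, measured 11.46 and 11.85 against 10.28, 9.83 and 10.61. In these 3 genes females and male were low alike. Slc22a8, the exchanger OAT3, was low in the male alone, with 11.48 and 11.52 in wild type, 11.20 and 11.60 in the females and 8.88 in the male. The test with a sex term called 14 of the 23, all lower, and it called 19.9% of all tested genes lower. Abcc3, an efflux pump of conjugates, went the other way, with 5.54 and 5.45 against 9.04, 6.58 and 8.09.

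In the later segments of the nephron the values depended on the sex term. The median over 12 tested loop of Henle genes was -0.60 in the male and 0.29 in the females. It was -0.83 with a sex term, and 6 of the 12 passed, all lower, beside a median of -0.89 for the brush border list and 19.9% lower calls over all tested genes. Umod, uromodulin, the most abundant protein of normal urine, measured 12.33 and 12.34 in wild type and 12.69, 12.27 and 12.57 in the single mutants. Egf, made in the distal nephron, measured 11.73 and 11.42 in wild type, 11.91 and 11.86 in the females and 9.68 in the male. Cldn10, a claudin of the thick limb and proximal tubule, was the list's 1 gene below wild type in all mutants, with 9.45 and 9.97 against 8.59, 7.83 and 9.14. Distal convoluted and connecting tubule genes had a median of 0.07, with Slc12a3, the thiazide-sensitive carrier, at 11.47 and 10.79 against 11.41, 11.11 and 11.61. Calb1, a calcium buffer of these cells, measured 10.99 and 10.95 against 10.73, 9.77 and 10.80. Principal cell genes of the collecting duct had a median of 0.00, with Aqp2, the vasopressin-regulated water channel, at 8.23 and 8.27 against 8.39, 8.34 and 8.10. Aqp4 differed from that pattern, with 8.31 and 8.63 against 7.79, 6.68 and 7.77. Of 15 tested distal convoluted and connecting tubule genes 3 passed with a sex term, and of 13 principal cell genes 2, all lower. Of 15 tested intercalated cell genes 6 passed with a sex term, all lower, with a median of -0.66 in that fit, although in 0 of the 15 did the groups separate on the arrays. Their medians were -0.66 in the male and 0.25 in the females.

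Genes of hormones and minerals had a mean below wild type in 12 of 13 tested, with a median of -0.43. Kl, the co-receptor for FGF23, measured 11.24 and 11.17 in wild type and 10.73, 9.84 and 11.06 in the single mutants. Vdr, the vitamin D receptor, measured 10.27 and 10.15 against 9.38, 9.29 and 10.01. Cyp24a1, which degrades vitamin D, measured 10.13 and 9.74 against 9.46, 6.86 and 9.88, so the male was far below the rest. Fgfr1, the receptor that Kl assists, was the 1 gene above wild type, with 6.90 and 6.88 against 7.23, 7.66 and 7.30, and passed with a sex term at 0.64 (adjusted p = 0.0229).

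**Figure D3:**
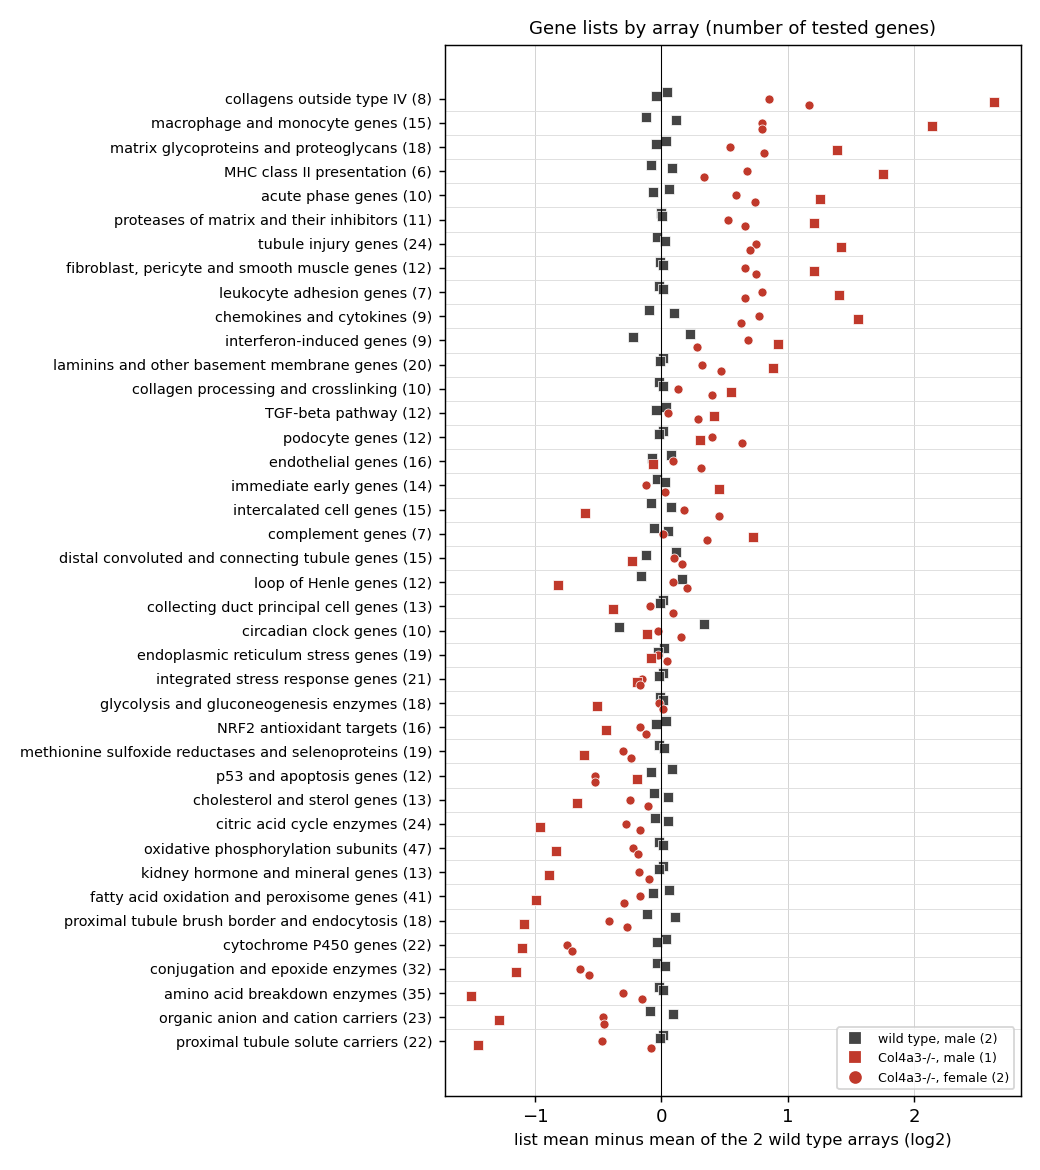
Mean of the tested genes of each list on each array, minus the mean of the 2 wild type arrays (x axis, log2), for 40 lists with at least 6 tested genes (y axis, number of tested genes in parentheses), grey for wild type, red for Col4a3-/-, squares for males and circles for females. Collagen, macrophage and matrix lists lie right of wild type and tubule carrier and metabolic lists left of it. In the collagen, macrophage and matrix lists some of the tested genes passed the filter through the mutants alone. The male mutant is the farthest from wild type in the collagen, macrophage and amino acid breakdown lists.

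Of 47 tested subunits of oxidative phosphorylation 1 had a mean above wild type and 27 did not overlap on the low side, as 29.1% of all tested genes did not. The median was -0.42, with -0.85 in the male and -0.21 in the females. Ndufa1, a subunit of complex I, measured 9.90 and 9.73 in wild type and 9.19, 8.87 and 9.17 in the single mutants. Sdhc, which anchors succinate dehydrogenase, measured 10.47 and 10.45 against 9.47, 8.77 and 10.26. Atp5h, a subunit of ATP synthase, measured 11.14 and 11.42 against 10.87, 9.93 and 11.09. The females lay between the male and wild type in all 3. Of the 47 genes 24 passed with a sex term, all lower, where 19.9% of all tested genes did. All 24 tested citric acid cycle enzymes had a mean below wild type, with a median of -0.39. With a sex term 14 of them passed, all lower, beside the same share. Pcx, pyruvate carboxylase, which refills the cycle, had the lowest difference among them, with 10.37 and 10.34 against 9.54, 8.64 and 9.53.

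Fatty acid oxidation and peroxisome genes had a median of -0.44 over 41 tested genes, 4 of them above wild type. Crot, a carnitine acyltransferase of peroxisomes, measured 10.81 and 11.35 in wild type and 9.96, 9.83 and 9.53 in the single mutants. Pecr, a peroxisomal reductase, measured 9.49 and 9.97 against 8.52, 8.49 and 8.52. These 2 genes were low in males and females alike. Acads, which starts the oxidation of short chains, measured 8.91 and 9.05 against 8.28, 8.01 and 8.24. Cpt1a, the gate of fatty acids into mitochondria, was closer to wild type, with 10.51 and 10.35 against 10.29, 9.69 and 10.14. Of the 41 genes 25 passed with a sex term, all lower, where 19.9% of all tested genes did. Among cholesterol genes Mvd, an enzyme of synthesis, measured 7.29 and 7.79 against 6.51, 6.64 and 6.65, and the list median was -0.37.

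Enzymes of amino acid breakdown separated the male from the females by a wide margin, with medians of -1.63 and -0.25. Of 35 tested 3 had a mean above wild type and 22 did not overlap on the low side, as 29.1% of all tested genes did not. With a sex term 25 passed, all lower, where 19.9% of all tested genes did. Cbs, which starts the conversion of homocysteine to cysteine, measured 9.37 and 9.79 in wild type and 8.24, 7.73 and 8.20 in the single mutants. Dao, the D-amino acid oxidase of the proximal tubule, measured 10.73 and 10.96 against 9.81, 8.70 and 10.25. Cth, the next enzyme after Cbs, was low in the male alone, with 10.27 and 10.49 in wild type, 10.13 and 10.49 in the females and 7.89 in the male. Gatm, the first enzyme of creatine synthesis, behaved alike, with 9.64 and 10.05 in wild type, 9.49 and 10.22 in the females and 7.32 in the male. Arg2, the mitochondrial arginase, was the list's 1 gene above wild type in all mutants, with 7.05 and 6.98 against 8.25, 7.69 and 7.37. Glycolysis and gluconeogenesis genes were mixed, with a median of -0.13. Pkm, the pyruvate kinase of growing cells, measured 9.41 and 9.45 against 9.87, 9.70 and 9.80, and G6pc, which releases glucose, measured 11.14 and 11.35 against 10.70, 9.41 and 10.30.

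Conjugating and epoxide enzymes had a median of -0.68 over 32 tested genes, 5 above wild type. With a sex term 18 passed, all lower, where 19.9% of all tested genes did. Ephx2 measured 10.71 and 10.94 in wild type and 9.44, 9.41 and 9.58 in the single mutants. Tpmt, thiopurine methyltransferase, measured 9.86 and 10.22 against 9.03, 8.18 and 9.09. Inmt, a methyltransferase, measured 10.98 and 11.34 against 9.43, 9.86 and 9.58. Ephx2 and Inmt were as low in the females as in the male. Cytochrome P450 genes had a median of -0.62 over 22 tested, 6 above wild type, and several of them belong to the sex-linked genes that follow.

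Genes known to be male-high in mouse kidney had the lowest median of the lists with at least 6 tested genes, -2.02, with medians of -2.26 in the females and -1.25 in the male. Slc7a13, an amino acid carrier, measured 11.05 and 11.20 in wild type, 4.89 and 5.30 in the female single mutants and 9.18 in the male. Cyp2j13 measured 11.10 and 11.45 in wild type, 5.13 and 5.21 in the females and 9.84 in the male. Cyp4a12a, which makes the vasoactive lipid 20-HETE, measured 9.58 and 10.88 in wild type, 5.90 and 4.89 in the females and 7.90 in the male. The females lie between 4.89 and 5.90 in these genes, and the male mutant lies below both wild type males. With a sex term 9 of the 16 tested genes passed, all lower, including Slc7a13 at -1.73 (adjusted p = 0.00758) and Cyp4a12a at -2.29 (adjusted p = 0.0189). Over all tested genes 19.9% passed on that side. Odc1, the first enzyme of polyamine synthesis, was low in both sexes, with 10.34 and 11.22 in wild type and 8.67, 8.92 and 9.35 in the single mutants. Ugt2b37 measured 9.14 and 9.16 in wild type and 8.40 in the male, and it did not pass (-0.57, adjusted p = 0.0511).

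Female-high genes had a median of 1.02 in the females and -1.56 in the male. Hpd, an enzyme of tyrosine breakdown, measured 9.82 and 9.72 in wild type, 10.88 and 11.28 in the females and 6.43 in the male. Cyp2d26 measured 10.37 and 9.30 in wild type, 10.43 and 10.98 in the females and 6.26 in the male. Rdh16f2, a retinol dehydrogenase, measured 9.83 and 8.84 in wild type, 10.43 and 10.51 in the females and 5.93 in the male. The male mutant was below both wild type males in each, so both male-high and female-high genes were lower in it. Slc7a12 and Cyp4a14 varied between the 2 wild type males by over 3, with 9.73 and 6.24 in Slc7a12 and 8.58 and 5.14 in Cyp4a14, and the male mutant had 6.29 and 5.19. Their wild type values are thus no fixed level for males.

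**Figure D4:**
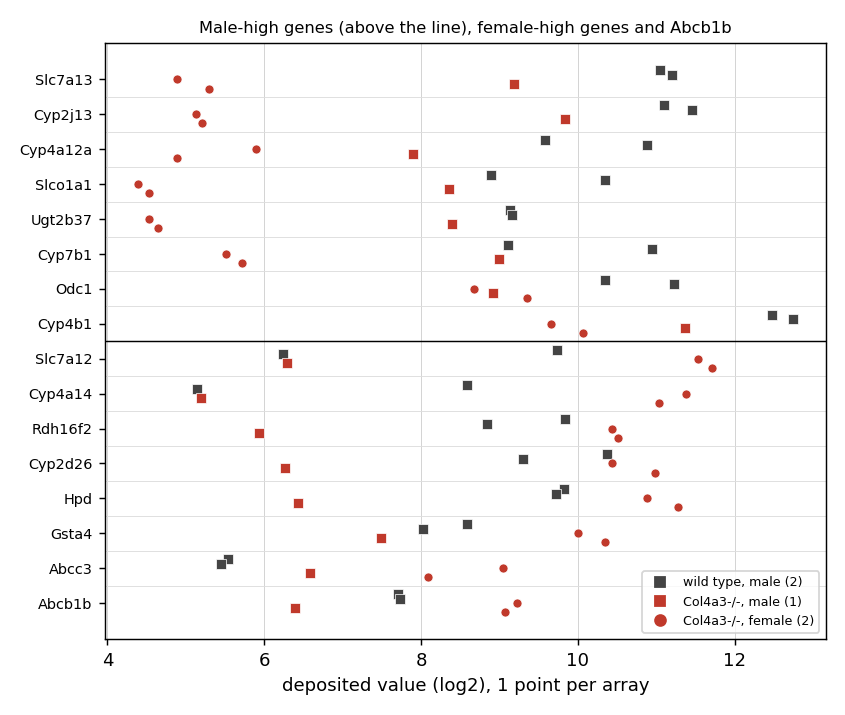
Deposited log2 values (x axis) of 8 male-high genes, above the line, and of 7 female-high genes and Abcb1b, below it (y axis), with 1 point per array, grey for wild type, red for Col4a3-/-, squares for males and circles for females. Above the line the female mutants lie lowest, except in Odc1, and the male mutant lies left of both wild type males. Below it the male mutant lies left of the wild type males in Rdh16f2, Cyp2d26, Hpd and Gsta4, and the females right.

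Over all 7145 tested genes, values of the male and of the females are given apart. In the male, against both wild type males, 2147 genes passed (30.0%) in limma, with 718 higher and 1429 lower. An unadjusted p under 0.05 was found for 3116 (43.6%). The spread of this 1 mouse, which stood apart from the other arrays, is taken to be that of the other groups, and its genotype and the animal itself cannot be told apart. Of the 7145 genes 279 had both females above and the male below both wild type mice, and 129 had the opposite order. Gaps of at least 1 on both sides were found in 2 of the first kind, Hpd and Abcb1b, and in 0 of the second. No female wild type mouse was measured, so the female differences mix sex with genotype and the 2 cannot be told apart.

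**Figure D5:**
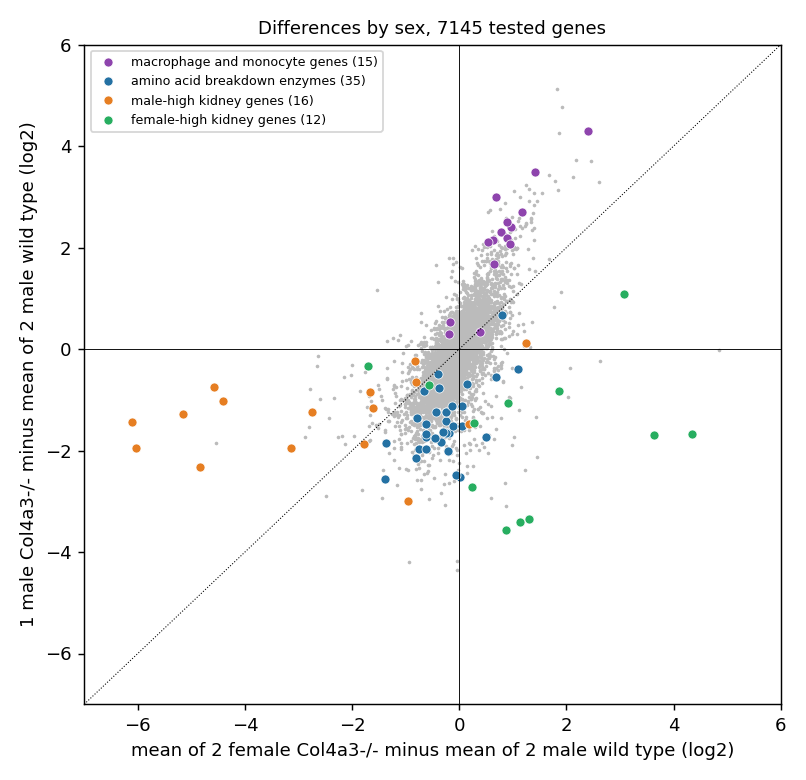
Difference from the wild type mean of the 2 female Col4a3-/- mice (x axis, log2) and of the 1 male (y axis, log2) for 7145 tested genes in grey, with 4 lists in colour. The dotted line marks equal differences. Of the 15 tested macrophage genes, 10 had both wild type values under the filter. Macrophage genes mostly lie above it on the right, with medians of 0.78 and 2.18, amino acid breakdown genes mostly lie below 0 on the y axis, male-high genes mostly on the left, and most female-high genes at the lower right.

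Endoplasmic reticulum stress genes had a median of -0.02 over 19 tested, and Hspa5, the main chaperone of that compartment, measured 8.73 and 8.67 in wild type and 8.71, 8.70 and 8.82 in the single mutants. Antioxidant targets of NRF2 had a median of -0.26, with 3 of 16 above wild type. Gclm, a subunit of the enzyme that limits glutathione synthesis, measured 10.31 and 10.64 against 9.73, 9.41 and 9.83. In the p53 and apoptosis list 1 of 12 had a mean above wild type. Cdkn1a, the cell cycle inhibitor p21, measured 8.65 and 8.22 against 6.83, 7.74 and 7.03, and Gadd45g measured 9.90 and 9.67 against 7.76, 8.85 and 8.42. Neither passed with or without a sex term, and in both the females were lower than the male. Clock genes had a median of 0.00, with Per1 at 9.97 and 8.76 in wild type and 9.25, 9.79 and 9.43 in the single mutants.

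Most cell cycle genes lay below the filter, and their median over 25 measured genes was 0.21. Mki67, a marker of dividing cells, measured 5.43 and 5.42 in wild type and 6.45, 7.53 and 5.58 in the single mutants. Ccnb2, a mitotic cyclin, measured 5.76 and 5.86 against 6.46, 7.30 and 5.76. Both were highest in the male and near the wild type values in single mutant 3. Immediate early genes, which respond to handling within minutes, had a median of 0.15 over 14 tested. Egr1 measured 5.87 and 8.08 in wild type and 6.34, 7.31 and 7.45 in the single mutants, so the 2 wild type mice spanned the mutants.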

How the data were processed

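The authors deposited log2 values, 1 per probe set and array, for 33793 probe sets, and the scale was read from their range of 4.20 to 13.43. The labels name a labelling kit for small RNAs, while the probe sets name mostly protein-coding genes. How they were normalized is not stated in those sources, and the values were used as deposited. Of the probe sets, 23521 name 1 gene, 1814 several and 8458 none, by platform annotation that can be old. Genes were tested where the mean over 8 arrays exceeded the 75th percentile of all probe sets, 6.64. No background level was set. Precision is limited by the number of arrays.

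Groups were compared in limma 3.58.1 (lmFit, eBayes; R 4.3.3) over all 8 arrays, without a sex term, with one, and in cells of genotype and sex. P values are two-sided, adjusted by Benjamini-Hochberg over 7145 genes, and called under 0.05. Sex was read from Xist, Uty, Kdm5d and Eif2s3y. The fit was tested on simulated data. Nothing says how the mice were related, so p values measure only the spread between these arrays.

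Named genes are the 20 with the smallest p, the 12 on each side with the widest gap between groups, and up to 4 members of each of 54 lists with a few further members. The comparison, the lists and the rule were chosen with earlier results of these data known. Gene positions and promoters are RefSeq's on GRCm38.p6. The osteopontin gene is not reported here. Python 3.11.15 with matplotlib 3.10.9 made the plots.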

Additional observations from a re-analysis of the deposited data

Results flagged for a closer look

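In 2 genes the male and the female single mutants lay on opposite sides of all wild type arrays with gaps of at least 1. Hpd, an enzyme of tyrosine breakdown, differed from the wild type mean by -3.34 in the male and by 1.31 in the females. Abcb1b, a drug efflux pump, differed by -1.33 in the male and by 1.43 in the females. It measured 7.71 and 7.73 in wild type, 9.22 and 9.07 in the females and 6.39 in the male. The difference between the sexes was not tested, and both wild type mice are male, so the female values mix sex and genotype.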

How the results depend on the processing

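Without a sex term the count of 2 became 7 with no filter, 807 with array weights (289 higher, 518 lower), 1946 with a sex term and 0 with only the 5 arrays compared, where 1521 had an unadjusted p under 0.05. With the replicate number as a block it was 0 (1265 unadjusted). The numbers do not pair the samples, and with a sex term the block gave 1980. Leaving out each array gave 0 to 4. With a sex term the count of 1946 became 1042 with array weights, 765 with a difference of at least 1, and 0 to 2147 when each array was left out: 0 without single mutant 2, 66 without wild type 2 and 1160 without wild type 1. For the male alone 2147 became 1003 with a difference of at least 1. Its split of 718 higher and 1429 lower became 1176 and 1191 with no filter, 1335 and 1637 at the 50th percentile, 957 and 1250 after quantile normalization and 912 and 1140 after cyclic loess. With no filter 3431 genes lay above and 4263 below without overlap. Genes with a difference of at least 1, 365 in all, numbered 211 without single mutant 2 and 576 without single mutant 3. Without a sex term Col4a3 ranged from -1.47 to -0.94 when each array was left out. Of the values for named genes and lists, 1954 kept their direction and side of the threshold or moved by less than the spread, 86 no longer passed, 76 newly passed and 53 moved. Among list means of at least 0.25, that of female-high genes changed sign, from 0.31 to -0.23 without single mutant 1 and to -1.36 with a sex term. The causes were not tested.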

Other observations

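Genes beside Col4a3 on chromosome 1 were looked at in a window of 5 Mb to each side, chosen after the data were seen. It holds 30 tested genes with a median difference of -0.09, of which 7 lay above and 8 below wild type without overlap, where 19.3% and 29.1% of all tested genes did. Fbxo36 measured 8.21 and 8.72 in wild type and 7.08, 7.15 and 7.41 in the single mutants. Slc16a14, a monocarboxylate carrier, measured 9.72 and 9.19 against 8.46, 8.39 and 8.07. Dock10 measured 5.87 and 6.25 against 6.82, 8.02 and 6.58, and Snora75, a small nucleolar RNA, measured 7.38 and 7.06 against 9.75, 10.14 and 7.60. With Col4a3 itself these are the 5 genes of the window whose means differ by at least 1, as those of 365 of all 7145 tested genes did. Whether the window differs from the rest of the genome was not tested.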
